A study of Mus musculus with 9 samples.

Results

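The genes described here encode 9 secreted growth factors: Vegfa, Vegfc, Hgf, Fgf2, Fgf7, Areg, Ereg, Hbegf and Pdgfa. Their rows were found by gene symbol, and all 9 were among the 55450 genes listed for each library. The 9 genes were chosen with earlier results of these data known. The group was named for angiogenic, neurotrophic and EGF-type factors, but none of the 9 is a neurotrophin. RNA was sequenced from primary articular chondrocytes of the mouse, which produce joint cartilage, in 9 libraries forming 3 groups of 3. Every group was kept in medium with 10% serum at 3% oxygen and received hyaluronidase, an enzyme that digests hyaluronan in the matrix around the cells, at 4 U/mL for 4 h. The bleomycin plus ST045849 group then received bleomycin, which breaks DNA, at 50 µg/mL for 24 h, and afterwards 20 µM ST045849 for 5 days. The bleomycin plus DMSO group received the same bleomycin exposure and then the solvent DMSO for 5 days. The vehicle group received PBS in place of bleomycin and then DMSO for 5 days. ST045849 is an inhibitor of O-GlcNAc transferase, the enzyme that places single sugar residues on nuclear and cytoplasmic proteins. Cells given ST045849 without bleomycin were not analysed here, so the inhibitor was compared only on a bleomycin background.

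Growth factors of these families are released by one cell and bind receptor tyrosine kinases on another or on the same cell, and many of those receptors signal through the ERK cascade. Amphiregulin (Areg), epiregulin (Ereg) and HB-EGF (Hbegf) are made as membrane-anchored precursors and are cut free by proteases to act on the EGF receptor. The FGFs, HB-EGF and some forms of VEGF-A bind heparan sulfate in the matrix, and in cartilage FGF2 is stored in the matrix around the chondrocyte. Senescent cells that persist after DNA damage are known to secrete several such factors together with cytokines and proteases.

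The deposited values are FPKM, fragment numbers scaled by exon length and library total. Differences were computed as log2(FPKM + 1), a scale on which the change of a low gene comes out too small. Testing was limited to genes that reached 1 FPKM in 3 or more libraries, which 12441 genes and 7 of the 9 growth factors did. Vegfc and Areg stayed below that level. Calls required a limma p under 0.05 after Benjamini-Hochberg adjustment over all tested genes. Nothing in the labels ties the 3 libraries of a group to separate animals or cultures, so p-values measure the spread between these libraries, which may be technical. In such bulk RNA, fewer cells of a type and less RNA per cell cannot be told apart. With 3 libraries against 3, an exact permutation test on a single gene cannot give a two-sided p below 0.1.

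The 9 libraries had implied depths of 31300000 to 35900000 fragments, estimated from the spacing of low FPKM. All 10 chondrocyte markers passed the filter, with summed levels of 15912 to 23041 FPKM with bleomycin plus ST045849, 19550 to 27262 with bleomycin plus DMSO and 26539 to 36309 in vehicle. None of 8 endothelial markers passed it, and their summed level was 1.51 to 1.6, 1.14 to 1.39 and 0.482 to 0.636 FPKM in the same order of groups. Of 10 macrophage markers, C1qb, C1qc and Tyrobp were at 0 in all 9 libraries. Cd14, Cd68 and Lyz2 passed the filter and were called higher in both bleomycin groups than in vehicle, with a list sum of 11.9 to 18 FPKM with bleomycin plus ST045849, 10.9 to 12.6 with bleomycin plus DMSO and 3.05 to 5.75 in vehicle. Of 10 fibroblast or synovial markers 8 passed, and their list sum was 2393 to 4245 FPKM, 4105 to 5364 and 2437 to 2949 in the same order. Of these, Thy1, Dcn and Cd34 were called higher after bleomycin (log2 changes of 2.00, 1.21 and 1.16), and Thy1 and Cd34 also with bleomycin plus ST045849 over vehicle (1.49 and 1.27). The chondrocyte markers Acan, Matn3, Col11a1 and Col11a2 were called lower with bleomycin plus ST045849 than in vehicle (-1.66, -1.80, -1.42 and -1.02). Of 6 epithelial markers 2 passed, with a list sum of 1.64 to 4.47, 1.98 to 2.39 and 1.15 to 2.66. Of all tested genes, 4.2% were called higher with bleomycin plus DMSO than in vehicle. With bleomycin plus ST045849, 8.11% were called higher and 1.74% lower than in vehicle. The part of these cell type markers in the results below was not tested.

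The promoters of 3 genes are shown: Fgf7, higher in bleomycin libraries, Areg, listed above 0 only in bleomycin libraries, and Fgf2, which was lowest with ST045849. Areg was below the filter and carries no call. Each runs from 250 bases before to 50 bases after the annotated start and comes from RefSeq on GRCm38.p6, where 7 of the 9 genes had an entry and Ereg and Hbegf were not among them. Capitals mark matches, on either strand, to 4 motifs: the TATA box TATAAA, the cyclic AMP response element TGACGTCA, the AP-1 site TGANTCA and the GC box GGGCGG. No 2 of the matches shown overlap. The Fgf7 window is chr2:126034408-126034707, the Areg window chr5:91139349-91139648 and the Fgf2 window chr3:37348403-37348702, all on the plus strand.
Fgf7: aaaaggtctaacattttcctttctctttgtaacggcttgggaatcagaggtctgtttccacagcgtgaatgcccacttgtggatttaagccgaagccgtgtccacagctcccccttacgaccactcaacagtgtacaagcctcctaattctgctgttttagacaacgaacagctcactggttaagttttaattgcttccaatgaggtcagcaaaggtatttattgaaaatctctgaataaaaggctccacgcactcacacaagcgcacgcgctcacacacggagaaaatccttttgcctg
Areg: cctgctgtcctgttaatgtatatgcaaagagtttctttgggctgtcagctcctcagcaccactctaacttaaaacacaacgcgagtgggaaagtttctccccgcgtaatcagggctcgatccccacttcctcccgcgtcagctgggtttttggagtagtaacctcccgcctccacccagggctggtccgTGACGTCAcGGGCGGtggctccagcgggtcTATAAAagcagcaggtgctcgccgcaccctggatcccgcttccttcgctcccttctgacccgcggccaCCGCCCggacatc
Fgf2: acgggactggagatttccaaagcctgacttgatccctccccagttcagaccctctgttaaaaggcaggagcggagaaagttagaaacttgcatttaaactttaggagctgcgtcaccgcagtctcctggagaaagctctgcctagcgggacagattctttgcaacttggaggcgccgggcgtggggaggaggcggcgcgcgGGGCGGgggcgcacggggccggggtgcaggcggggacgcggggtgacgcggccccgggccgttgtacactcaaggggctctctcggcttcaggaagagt
The Areg window held the cyclic AMP response element at position -61 from the start, the GC box at -52 and again, on the opposite strand, at 38, and the TATA box at -31. Fgf2 held 1 GC box, at -49, in a window of 62.7% G and C, and Fgf7 held none of the 4 motifs in a window of 45.7% G and C. Areg had 59.3% G and C, and the median over all promoters was 52.7%. Among 32851 RefSeq promoters of the same length, 13.6% held the TATA box, 1.79% the cyclic AMP response element, 7.81% the AP-1 site and 35.7% the GC box.

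After bleomycin, 3 growth factor genes rose: Hbegf, Ereg and Fgf7. Against vehicle, 3 of the 7 tested genes were called higher and 0 lower, where 4.2% of all tested genes were called higher and 0.675% lower. Because these genes were chosen with earlier results known, such counts describe them and are not separate evidence. All 7 had a log2 change above 0, and their median was 0.98, beside 0.10 for all tested genes. The share of all tested genes above 0 was not computed for any of the 3 comparisons. In 4 of the 7 the bleomycin plus DMSO libraries all lay above the vehicle libraries, as did 21.4% of all tested genes. The same was true of Vegfc and Areg below the filter, where that share was not computed. Of the 4, Hgf reached 1 FPKM in bleomycin libraries alone and so entered the test through the groups where it is high. It is also counted among the 7 and in their median. Fgf2, Vegfa and Pdgfa were the 3 genes whose groups overlapped.

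Adding ST045849 after bleomycin gave 0 called growth factor genes with limma and no replicate block, where 0% of all tested genes were called. At an unadjusted p under 0.05 there was 1 of the 7, Fgf2, where 22.5% of all tested genes passed. Only Pdgfa had a log2 change above 0, and the median of the 7 was -0.24, beside 0.06 for all tested genes. With the replicate number as a block in a fit of these groups alone, Fgf2 and Hgf were called lower (limma adjusted p = 0.00812 and 0.046). That fit called 19.3% of all tested genes, and 8% of all tested genes were called lower. With the trend over exon length removed as well, Fgf2 alone was called, where 1.28% of all tested genes were. Fgf2 had all bleomycin plus ST045849 libraries under all bleomycin plus DMSO libraries, which 8.67% of tested genes did. So did Vegfc below the filter, where that share was not computed.

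Bleomycin plus ST045849 against vehicle called 3 of the 7 higher (Hbegf, Fgf7 and Pdgfa) and 0 lower, where 8.11% of all tested genes were called higher and 1.74% lower. The median was 0.76, beside 0.19 for all tested genes, and 6 of the 7 were above 0, Fgf2 being the exception. In 3 of the 7 all bleomycin plus ST045849 libraries lay above vehicle, as they did for 21% of all tested genes. This comparison shares its libraries with the other 2 and is not separate evidence. It also depended on the scaling: the FPKM gave 1009 genes higher and 216 lower, and median-of-ratios scaling 486 higher and 403 lower with a median over all genes of -0.01. The bleomycin plus DMSO comparison with vehicle gave 523 higher and 84 lower from the FPKM, and 320 and 151 with median-of-ratios scaling, whose median over all genes was -0.05.

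**Figure D1:**
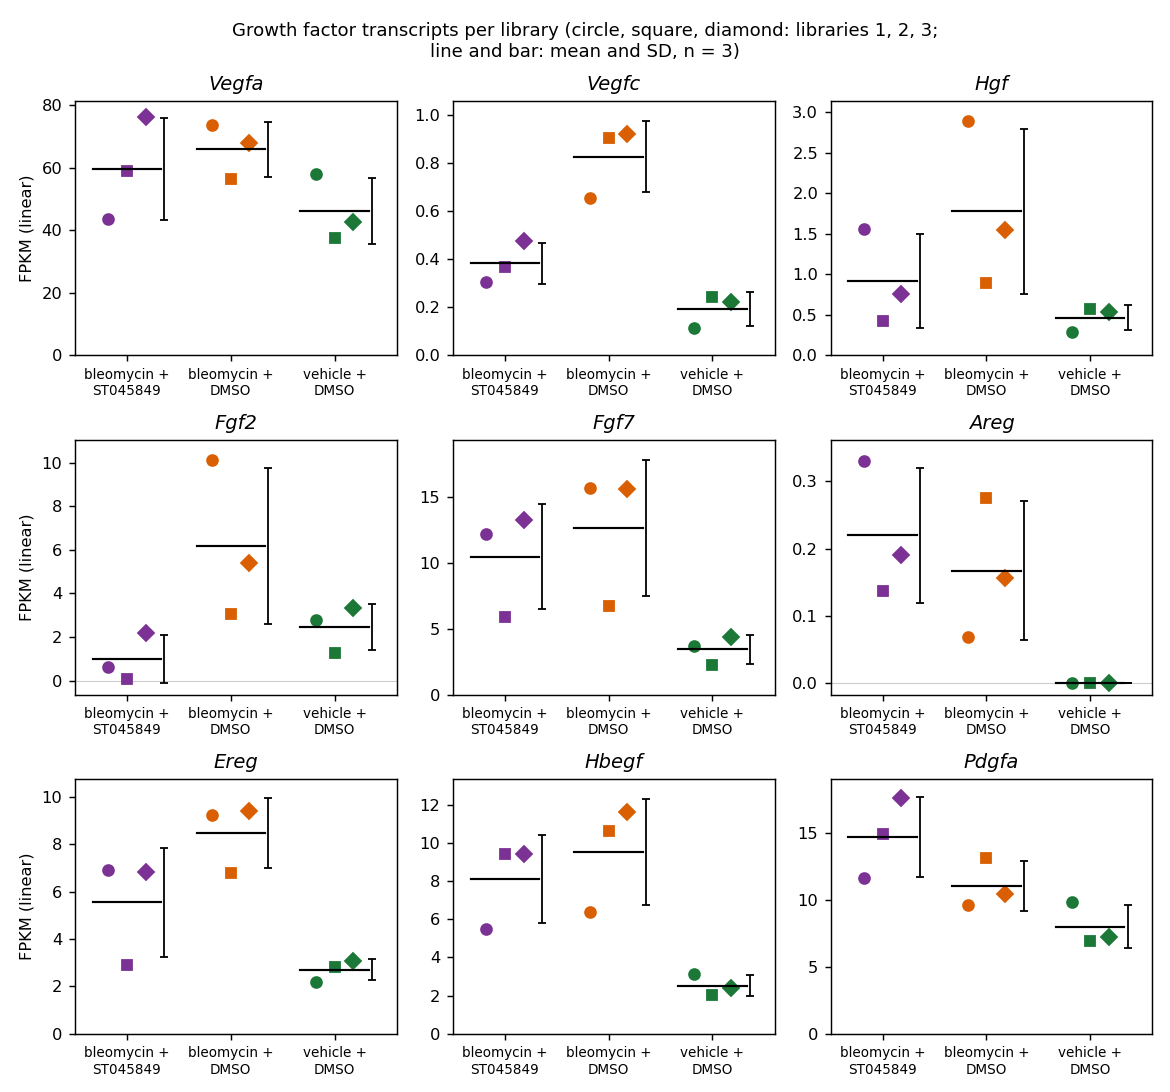
FPKM of the 9 growth factor genes in each library, 1 panel a gene with its own linear axis, with bleomycin plus ST045849 left, bleomycin plus DMSO in the middle and vehicle right. Points are libraries, and horizontal lines and bars are the mean and SD of 3. Vegfa had the highest means (59.6, 66 and 46.2 FPKM), and Areg was listed at 0 in the 3 vehicle libraries.

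Of the ligands of the EGF receptor, HB-EGF is a mitogen for fibroblasts, smooth muscle cells and keratinocytes. Its gene gave the lowest adjusted p of the tested growth factor genes in the limma fit of all libraries without a replicate block. Vegfc was not tested there, and with no filter its adjusted p after bleomycin was lower (0.0233 beside 0.0399 for Hbegf, limma). Hbegf (ENSMUSG00000024486.6, on chromosome 18) had 5.46, 9.43 and 9.42 FPKM in libraries 1, 2 and 3 with bleomycin plus ST045849. It had 6.36, 10.6 and 11.6 FPKM with bleomycin plus DMSO, and 3.12, 2.03 and 2.41 in vehicle. All 6 bleomycin libraries were above all 3 vehicle libraries, and library 1 was the lowest in each bleomycin group. The rise after bleomycin was 1.55 ± 0.26 on the log2 scale (SE, adjusted p = 0.00838 from limma), and the rise with bleomycin plus ST045849 over vehicle was 1.35 ± 0.26 (adjusted p = 0.0125). ST045849 against DMSO after bleomycin gave -0.20, with a 95% interval from -0.79 to 0.38 and an adjusted p of 0.628. Without vehicle library 2 the adjusted p was 0.0512 for bleomycin plus DMSO and 0.0664 for bleomycin plus ST045849, each against vehicle. The second was 0.0537 without vehicle library 3 and 0.0511 with no filter. Its call held in 12 of 14 other alternatives, with a limma adjusted p of up to 0.0657.

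Epiregulin, a broad ligand of the EGF receptor family, also rose. Ereg (ENSMUSG00000029377.5, GRCm38 chromosome 5, 91074622 to 91093646, plus strand) had 6.92, 2.89 and 6.85 FPKM with bleomycin plus ST045849, 9.23, 6.77 and 9.42 with bleomycin plus DMSO, and 2.2, 2.83 and 3.07 in vehicle. The bleomycin plus DMSO libraries were all above vehicle, whereas library 2 with ST045849 lay inside the vehicle range. The rise after bleomycin was 1.35 ± 0.28 (SE, adjusted p = 0.0201 from limma). With ST045849 each library was lower than the equally numbered library given bleomycin plus DMSO, by -0.59 ± 0.28 in the fit (95% interval -1.20 to 0.02, adjusted p = 0.226). Hgf, Fgf2, Fgf7, Hbegf and Vegfc were also lower in every such pair. The share of all genes with every pair in the same direction was not computed. Bleomycin plus ST045849 against vehicle gave 0.76 ± 0.28 with an adjusted p of 0.0943, and 0.0192 without ST045849 library 2. The antisense gene Gm19610 covers 3.42% of the exons of Ereg.

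Amphiregulin, whose gene lies beside Ereg, was near the limit of detection. Areg (ENSMUSG00000029378.5, chromosome 5, 91139599 to 91148432, plus strand) had 0.331, 0.137 and 0.191 FPKM with bleomycin plus ST045849, 0.0694, 0.276 and 0.157 with bleomycin plus DMSO, and was listed at 0 in the 3 vehicle libraries. These values correspond to about 14, 6 and 8 fragments with bleomycin plus ST045849 and 3, 12 and 6 with bleomycin plus DMSO. The 2 bleomycin groups overlapped. In a fit with no filter, in which 1.59% of genes were called for bleomycin plus DMSO against vehicle, Areg had an adjusted p of 0.214 (limma). The neighbours thus stood at different levels, Ereg averaging 8.47 ± 1.48 FPKM and Areg 0.168 ± 0.104 with bleomycin plus DMSO (SD, n = 3 each).

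Among the fibroblast growth factors, Fgf7, which encodes keratinocyte growth factor and acts mainly on epithelial cells, rose. Fgf7 (ENSMUSG00000027208.14, chromosome 2, 126034658 to 126091185, plus strand) had 12.2, 5.93 and 13.3 FPKM with bleomycin plus ST045849, 15.7, 6.71 and 15.6 with bleomycin plus DMSO, and 3.7, 2.21 and 4.39 in vehicle. Library 2 was the lowest in every group, and the bleomycin libraries all lay above vehicle. The rise after bleomycin was 1.57 ± 0.36 (SE, adjusted p = 0.0343 from limma), and the rise with bleomycin plus ST045849 over vehicle was 1.33 ± 0.36 (adjusted p = 0.0427). ST045849 against DMSO after bleomycin gave -0.24, with a 95% interval from -1.04 to 0.56. The summed fibroblast or synovial markers were lowest in library 2 only with ST045849, at 2393 FPKM beside 4245 and 2843 in libraries 1 and 3. Library 3 had the lowest sum with bleomycin plus DMSO (5364, 4136 and 4105) and in vehicle (2949, 2747 and 2437). The part of these markers in the Fgf7 values was not tested.

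The calls of Ereg and Fgf7 after bleomycin ended when any 1 of 5 libraries was left out. Without bleomycin plus DMSO library 1 or 3, or any 1 of the 3 vehicle libraries, the adjusted p was 0.0614 to 0.0813 for Ereg and 0.0749 to 0.135 for Fgf7, and with no filter 0.0678 and 0.111. The call of Fgf7 for bleomycin plus ST045849 against vehicle held in 9 of 14 other alternatives. Its adjusted p was 0.0701 with median-of-ratios scaling and 0.13 with no filter. It ran up to 0.176 with 1 library left out: bleomycin plus ST045849 library 1 or 3, bleomycin plus DMSO library 1 or 3, or any of the vehicle libraries.

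Fgf2, which encodes basic FGF, a mitogen held in the cartilage matrix, was the gene of the 9 with the largest difference between the 2 bleomycin groups. Fgf2 (ENSMUSG00000037225.13, chromosome 3, 37348346 to 37410108, plus strand) had 0.646, 0.0772 and 2.2 FPKM with bleomycin plus ST045849 and 10.1, 3.05 and 5.38 with bleomycin plus DMSO. Vehicle had 2.76, 1.28 and 3.34. All 3 ST045849 libraries were below all 3 bleomycin plus DMSO libraries, and both groups overlapped vehicle. The coefficient of variation was 113% with ST045849, 58.2% with bleomycin plus DMSO and 43.2% in vehicle, and ST045849 library 2 held about 19 fragments.

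The difference of Fgf2 between bleomycin plus ST045849 and bleomycin plus DMSO was -1.89 ± 0.44 on the log2 scale (SE, 95% interval -2.85 to -0.92), with an adjusted p of 0.203 from limma on all 9 libraries. Equally numbered libraries of these 2 groups deviated together, and with the replicate number as a block in a fit of the 6 libraries the adjusted p was 0.00812, where 19.3% of all tested genes were called. Without ST045849 library 1 the adjusted p was 0.0378 with no block, and over the single libraries left out it ran up to 0.506. Bleomycin plus DMSO against vehicle gave 0.98 ± 0.44 with an adjusted p of 0.275, and bleomycin plus ST045849 against vehicle -0.90 ± 0.44 with an adjusted p of 0.183.

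Gene length moved with this comparison. Over all tested genes, the median log2 change of bleomycin plus ST045849 against bleomycin plus DMSO was 0.44 in the 3110 genes with the shortest exons in total (57 to 2506 bases) and -0.34 in the 3109 genes with the longest (6655 to 41324 bases). Fgf2, with 6782 bases of exon, and Hgf, with 7186, fall among the longest. With the length trend removed in each library, Fgf2 gave -1.67 with an adjusted p of 0.309, and with the block as well -1.67 ± 0.31 with an adjusted p of 0.0499, where 1.28% of all tested genes were called. Nudt6, on the opposite strand, covers 9.44% of the exons of Fgf2 and averaged 2.96 FPKM with bleomycin plus ST045849, 1.86 with bleomycin plus DMSO and 2.49 in vehicle. Gm43439 covers 3.76% on the same strand and was at or near 0 in every library. Whether strand was used in counting is not given in the sources used here, and the part of Nudt6 in the Fgf2 values was not tested.

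**Figure D2:**
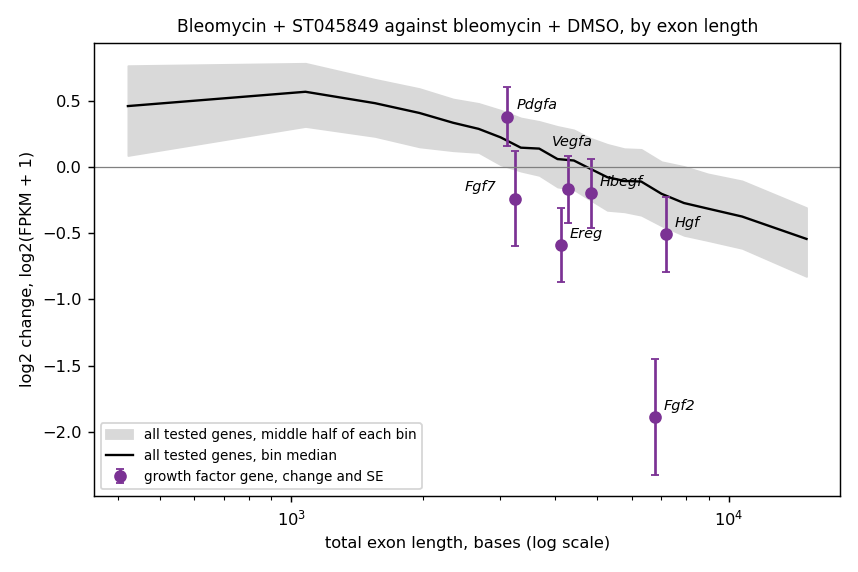
Median log2 change, bleomycin plus ST045849 over bleomycin plus DMSO, of all tested genes in bins of total exon length (log axis, bases) as a line with the middle 50% of genes shaded, and the 7 tested growth factor genes as labelled points with SEs. The medians run downward with length, and Fgf2 at -1.89 lies below the line of medians at its length.

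Hepatocyte growth factor, the ligand of the Met receptor made by mesenchymal cells, had a low and scattered level. Hgf (ENSMUSG00000028864.7, chromosome 5, 16553495 to 16620152, plus strand) had 1.56, 0.429 and 0.758 FPKM with bleomycin plus ST045849, 2.89, 0.889 and 1.55 with bleomycin plus DMSO, and 0.283, 0.569 and 0.538 in vehicle. The bleomycin plus DMSO libraries all lay above vehicle, and in both bleomycin groups library 1 was the highest and library 2 the lowest. The difference after bleomycin was 0.87 ± 0.28 (SE) and was not called (adjusted p = 0.113 from limma). ST045849 against DMSO after bleomycin gave -0.51 ± 0.28, lower in 3 of 3 pairs, with an adjusted p of 0.269 and, with the replicate block, 0.046. With the block and the length trend removed it was -0.27 with an adjusted p of 0.283. Bleomycin plus ST045849 against vehicle gave 0.35 with an adjusted p of 0.399. Gm43489 covers 6.74% of the exons of Hgf on the same strand and averaged at most 0.109 FPKM in a group.

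The VEGF genes differed widely in level, Vegfa being the highest of the 9 and Vegfc among the 3 lowest. Vegfa (ENSMUSG00000023951.18, chromosome 17, 46016993 to 46032369, minus strand), the main driver of blood vessel growth and a product of hypertrophic cartilage, had 43.5, 58.9 and 76.3 FPKM with bleomycin plus ST045849. It had 73.7, 56.3 and 67.9 FPKM with bleomycin plus DMSO, and 58.1, 37.7 and 42.8 in vehicle. The groups overlapped in all 3 comparisons and 0 of the 3 were called. Bleomycin plus DMSO against vehicle gave 0.52 (95% interval -0.04 to 1.07, adjusted p = 0.324 from limma), ST045849 against DMSO after bleomycin -0.17 (-0.73 to 0.38) and bleomycin plus ST045849 against vehicle 0.35 (-0.21 to 0.90).

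VEGF-C, which drives the growth of lymphatic vessels, was the 1 gene of the 9 whose libraries lay apart in all 3 comparisons. The share of all genes that lay apart in all 3 was not computed. Vegfc (ENSMUSG00000031520.6, chromosome 8, 54077606 to 54187096, plus strand) had 0.305, 0.368 and 0.476 FPKM with bleomycin plus ST045849, 0.657, 0.903 and 0.923 with bleomycin plus DMSO, and 0.113, 0.243 and 0.221 in vehicle. These correspond to about 26, 32 and 39 fragments with bleomycin plus ST045849, 57, 79 and 71 with bleomycin plus DMSO, and 10, 21 and 18 in vehicle. The ratio of mean FPKM was 4.31 for bleomycin plus DMSO over vehicle, 0.462 for bleomycin plus ST045849 over bleomycin plus DMSO and 1.99 for bleomycin plus ST045849 over vehicle. The exact permutation test gave p = 0.1 in each, the smallest it can give. With no filter, limma gave 0.62 ± 0.09 for bleomycin plus DMSO against vehicle (adjusted p = 0.0233, where 1.59% of 30298 genes were called) and -0.4 ± 0.09 for ST045849 against DMSO after bleomycin (adjusted p = 0.344, where 0.0033% were called). Bleomycin plus ST045849 against vehicle gave 0.21 ± 0.09 in the same fit (adjusted p = 0.254, where 2.15% were called).

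Pdgfa, which encodes the A chain of platelet-derived growth factor, a mitogen for mesenchymal cells, was the 1 tested gene with its highest mean under ST045849. Pdgfa (ENSMUSG00000025856.15, chromosome 5, 138976014 to 138997370, minus strand) had 11.6, 14.9 and 17.6 FPKM with bleomycin plus ST045849, 9.58, 13.1 and 10.4 with bleomycin plus DMSO, and 9.86, 6.9 and 7.24 in vehicle. The ST045849 libraries all lay above vehicle, and the bleomycin plus DMSO libraries overlapped both other groups. Bleomycin plus ST045849 against vehicle gave a rise of 0.80 ± 0.22 (SE, 95% interval 0.32 to 1.28, adjusted p = 0.0424 from limma). That call ended in 9 of 14 other alternatives (adjusted p up to 0.203), among them median-of-ratios scaling (0.0971) and the 2 groups fitted alone (0.0899), and when any 1 library except ST045849 library 1 or vehicle library 1 was left out (up to 0.171). ST045849 against DMSO after bleomycin gave 0.38 (95% interval -0.10 to 0.86, adjusted p = 0.293), higher in 3 of 3 pairs, and bleomycin plus DMSO against vehicle 0.42 (-0.05 to 0.90, adjusted p = 0.358). The antisense gene 6330403L08Rik covers 26.1% of the exons of Pdgfa and averaged 1.88 FPKM with bleomycin plus ST045849, 1.79 with bleomycin plus DMSO and 1.08 in vehicle. The part of that gene in the Pdgfa values was not tested.

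**Figure D3:**
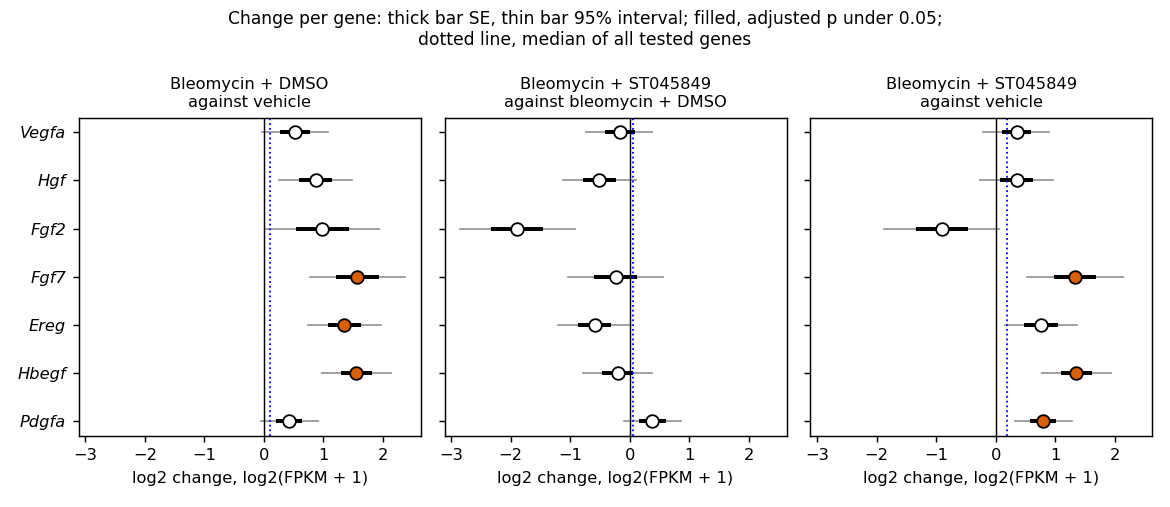
Log2 changes of the 7 tested growth factor genes in the 3 comparisons, with SEs (thick bars) and 95% intervals (thin bars). The fit is limma without a replicate block, and called values are filled. Hbegf, Ereg and Fgf7 are called after bleomycin (1.55, 1.35 and 1.57), and 0 of the 7 are called for bleomycin plus ST045849 against bleomycin plus DMSO.

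In order of mean FPKM with bleomycin plus DMSO, Vegfa (66 ± 8.88) stood well above Fgf7 (12.7 ± 5.15), Pdgfa (11 ± 1.86), Hbegf (9.51 ± 2.77), Ereg (8.47 ± 1.48) and Fgf2 (6.18 ± 3.59), whose neighbouring means lay within their SDs. Hgf (1.78 ± 1.02), Vegfc (0.828 ± 0.148) and Areg (0.168 ± 0.104) were the lowest (SD, n = 3 each).

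Other genes of these pathways showed the following. Of 16 receptors 11 passed the filter, and 0 were called in any of the 3 comparisons with limma, with 3, 3 and 4 at an unadjusted p under 0.05 for bleomycin plus DMSO against vehicle, bleomycin plus ST045849 against bleomycin plus DMSO, and bleomycin plus ST045849 against vehicle. In those comparisons 17.4%, 22.5% and 31.1% of all tested genes reached that p. Fgfr1, a receptor for FGF2, was the most abundant, at 130 ± 16.4 FPKM with bleomycin plus ST045849, 140 ± 6.5 with bleomycin plus DMSO and 91.7 ± 15.3 in vehicle (SD, n = 3 each). Its log2 change was 0.62 after bleomycin (adjusted p = 0.127) and -0.11 for ST045849 against DMSO after bleomycin (adjusted p = 0.745). The VEGF receptor genes Kdr, Flt1 and Flt4 were below the filter, with Kdr averaging 0.0129 FPKM with bleomycin plus ST045849, 0.00935 with bleomycin plus DMSO and 0 in vehicle. With the replicate block in the fit of the 2 bleomycin groups, 3 receptors were called lower with ST045849: the neuropilins Nrp1 and Nrp2, coreceptors of VEGF, and Pdgfra, the receptor of PDGF-A (adjusted p = 0.0126, 0.0459 and 0.0331). These were chosen after their values were seen, and the same fit called 8% of all tested genes lower. With the length trend removed as well, 0 of the 11 were called, and the list median was -0.22 in place of -0.36. Without the block the 3 had log2 changes of -1.20, -0.73 and -0.86 and adjusted p values of 0.203, 0.204 and 0.271.

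Of 17 further ligands of the same families 8 were tested, and 3 rose after bleomycin, Pdgfc, Nrg1 and Pdgfd, where 4.2% of all tested genes were called higher. The call of Pdgfd ended in 5 of the 9 fits that left out 1 library, those without bleomycin plus DMSO library 1 or 3 or any vehicle library (adjusted p up to 0.1). Pdgfc, a PDGF that binds the alpha receptor after cleavage, had 20.5, 15.6 and 18.5 FPKM with bleomycin plus ST045849, 19.8, 24.2 and 19.1 with bleomycin plus DMSO, and 4.99, 5.2 and 4.5 in vehicle. Both bleomycin groups lay far above vehicle, with log2 changes of 1.70 ± 0.18 for bleomycin plus ST045849 (adjusted p = 0.000992) and 1.90 ± 0.18 for bleomycin plus DMSO (adjusted p = 0.000739). Nrg1, a ligand of ERBB3 and ERBB4, had 1.67, 1.32 and 1.77 FPKM with bleomycin plus DMSO, against 0.398, 0.272 and 0.256 in vehicle (0.98 ± 0.16, adjusted p = 0.00766). Like Hgf, it reached 1 FPKM in bleomycin libraries alone and so entered the test through the groups where it is high. With bleomycin plus ST045849, Pdgfc, Vegfb and Pgf were called above vehicle, where 8.11% of all tested genes were called higher. Pgf, at 0.673 ± 0.258 FPKM in vehicle (SD, n = 3), also entered the test through bleomycin libraries. Pdgfc was the 1 call left with no filter, median-of-ratios scaling, quantile normalization, TPM or the 2 groups alone. The calls of Vegfb and Pgf ended in 5 and 6 of the 9 fits that left out 1 library, each time including those without ST045849 or vehicle library 2 or 3 (adjusted p up to 0.141 and 0.167). Vegfb, a VEGF family ligand of FLT1, had 18, 25.8 and 18.7 FPKM with bleomycin plus ST045849, 13, 13.7 and 12.9 with bleomycin plus DMSO, and 14, 9.25 and 10.4 in vehicle. Its libraries with ST045849 lay above all others. Of all tested genes, 16.5% had these libraries all above bleomycin plus DMSO and 21% all above vehicle. The log2 change of Vegfb from bleomycin plus DMSO was 0.61 ± 0.21 (limma adjusted p = 0.203, and 0.0435 with the replicate block). The blocked fit also called Pdgfd, a PDGF that binds the beta receptor, lower with ST045849. It averaged 2.81 ± 1.65 FPKM against 5.42 ± 1.43 with bleomycin plus DMSO (SD, n = 3 each). The log2 change was -0.84 ± 0.32, with an adjusted p from limma of 0.204 without the block and 0.0234 with it. With the length trend removed as well, 0 of the 8 ligands were called.

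Of 24 genes that release, activate or bind these factors 17 were tested, and Plat, Sdc1 and Hpse were called higher both after bleomycin and with bleomycin plus ST045849 against vehicle, where 4.2% and 8.11% of all tested genes were called higher. Plat, tissue plasminogen activator, had 20.5, 12.4 and 11.2 FPKM with bleomycin plus ST045849, 27, 21.5 and 21 with bleomycin plus DMSO, and 5.67, 5.04 and 4.91 in vehicle. Its groups lay apart in all 3 comparisons, for which no share of all genes was computed. Its rise after bleomycin was 1.96 ± 0.23 (adjusted p = 0.00241). Sdc1, a heparan sulfate proteoglycan, averaged 58.7 ± 3.81 FPKM with bleomycin plus DMSO, against 33.7 ± 1.76 in vehicle (SD, n = 3 each; adjusted p = 0.0264 from limma). Hpse, the heparanase that cuts heparan sulfate, averaged 2.75 ± 0.0958 FPKM with bleomycin plus ST045849, against 1.34 ± 0.165 in vehicle (adjusted p = 0.0255 from limma). The calls of Sdc1 and Hpse after bleomycin each ended when any 1 of the 6 libraries compared was left out. For bleomycin plus ST045849 against vehicle, their calls ended in 7 and 4 of the 9 such fits, each time including those without ST045849 or vehicle library 2 or 3, and 1 of the 3 calls was left with median-of-ratios scaling, quantile normalization, TPM or the 2 groups alone. In the comparison of the 2 bleomycin groups 0 of the 17 were called, with 3 at an unadjusted p under 0.05, which 22.5% of all tested genes reached. Sdc4, the most abundant, gave -0.08 (adjusted p = 0.852). With the replicate block 3 were called lower, Plat, Sulf1, which trims heparan sulfate, and the precursor protease Pcsk5 (adjusted p = 0.0353, 0.031 and 0.018). That fit called 8% of all tested genes lower. With the length trend removed as well, 0 of the 17 were called. Sulf1 and Pcsk5 were chosen after their values were seen.

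Of 18 immediate targets and feedback inhibitors of ERK signalling, the cascade below these receptors, 14 were tested. After bleomycin 6 rose and 0 fell, where 4.2% of all tested genes were called higher and 0.675% lower. The median log2 change was 0.76, beside 0.10 for all tested genes. With 1 library left out the number that rose was 1 to 7. It was 2 with no filter, 3 with TPM or median-of-ratios scaling, 4 with quantile normalization, and up to 9 with array weights, where 1 was called lower. Fosl1, an AP-1 subunit induced by ERK, had 6.87, 15.4 and 12.6 FPKM with bleomycin plus ST045849, 9.38, 9.93 and 14.3 with bleomycin plus DMSO, and 3.7, 1.68 and 2.22 in vehicle. It was higher in all bleomycin libraries, by 1.81 ± 0.30 after bleomycin (adjusted p = 0.00787). Spred3, an inhibitor of ERK activation, averaged 3.17 ± 0.336 FPKM with bleomycin plus DMSO, against 1.12 ± 0.209 in vehicle (SD, n = 3 each; adjusted p = 0.0108 from limma, and up to 0.0614 without bleomycin plus DMSO library 1 or vehicle library 2 or 3). Bleomycin plus ST045849 against vehicle called 2 higher, Fosl1 and Ier3, where 8.11% of all tested genes were called higher. Between the 2 bleomycin groups 0 of the 14 were called in the fit of all libraries, with 3 at an unadjusted p under 0.05, where 22.5% of all tested genes reached that p. With the replicate block Spred2, Spred3 and Errfi1 were called lower with ST045849 (adjusted p = 0.0266, 0.0258 and 0.0306), in a fit that called 8% of all tested genes lower. With the length trend removed as well, 0 of the 14 were called. Those 3 were chosen after their values were seen.

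Vegfa is a known target of low oxygen signalling, and all groups were cultured at 3% oxygen. Of 12 genes induced by hypoxia, all tested, 1 rose after bleomycin, Adm, where 4.2% of all tested genes were called higher. The median log2 change was 0.03, beside 0.10 for all tested genes. Adm, the gene of the vasodilator peptide adrenomedullin, had 93.3, 82.4 and 98.1 FPKM with bleomycin plus ST045849, 119, 100 and 104 with bleomycin plus DMSO, and 26.7, 22.9 and 25.9 in vehicle. The rise after bleomycin was 2.05 ± 0.18 (adjusted p = 0.000717) and with bleomycin plus ST045849 over vehicle 1.82 ± 0.18 (adjusted p = 0.000987). In the second of these comparisons 8.11% of all tested genes were called higher. Ndrg1 was the other gene of the list called there, at 0.64 (adjusted p = 0.0439). That call ended in 7 of the 9 fits that left out 1 library, all but those without ST045849 library 1 or vehicle library 1 (adjusted p up to 0.166), and in 8 of 14 other alternatives, median-of-ratios scaling, TPM and the 2 groups alone among them. Between the 2 bleomycin groups 0 of the 12 were called, with 0 at an unadjusted p under 0.05, which 22.5% of all tested genes reached. Ldha, the most abundant, gave 0.36 (adjusted p = 0.407).

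**Figure D4:**
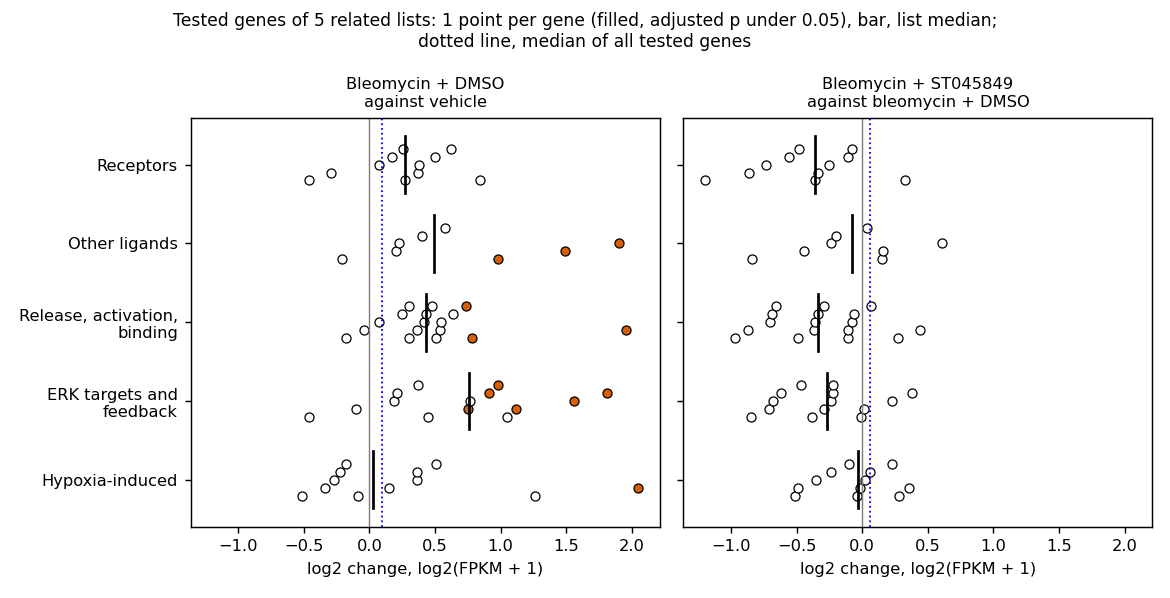
Log2 changes of the tested genes in the 5 lists of related genes, for bleomycin plus DMSO against vehicle (left) and bleomycin plus ST045849 against bleomycin plus DMSO (right), with called genes filled and list medians as bars. The ERK target list has its median at 0.76 after bleomycin and the hypoxia list at 0.03, beside 0.10 for all tested genes.

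The tested genes whose levels most resembled each factor over the 9 libraries are given as a description, since the libraries share their groups. Hbegf was most like Lif, which encodes leukaemia inhibitory factor, a cytokine of the interleukin-6 family (Pearson r = 0.988). Lif averaged 0.904 FPKM with bleomycin plus ST045849, 1.06 with bleomycin plus DMSO and 0.187 in vehicle. Ereg was most like Pdgfd (r = 0.984) and Hpgd, which encodes the enzyme that inactivates prostaglandins (r = 0.982). Fgf2 was most like Ptgs2, which encodes the inducible cyclooxygenase (r = 0.899), and Nfkbiz, a nuclear regulator of NF-kappaB target genes (r = 0.889). Ptgs2 averaged 3.06 FPKM with bleomycin plus ST045849, 6.17 with bleomycin plus DMSO and 4.32 in vehicle. The second gene for Hbegf was Tmem201 (r = 0.987). For the others the closest pair was Prr16 and 2810021J22Rik for Fgf7, Caprin2 and Arhgap18 for Hgf, Snapc4 and Cwf19l1 for Vegfa, and Slc25a26 and Exog for Pdgfa, with r from 0.927 to 0.988.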

How the data were processed

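Stranded poly(A) libraries from 9 chondrocyte samples were analysed, 3 in each of 3 groups taken from the labels. Per the submitters' processing notes, Trimmomatic trimmed the reads and STAR aligned them to GRCm38. Not given in the sources used here are versions, the program behind the FPKM, its annotation and its use of strand. The deposited FPKM values were used as the authors made them. FPKM already divides by exon length and library total, so a few very abundant genes can shift all others. Symbols came from the deposited row names, and coordinates, exon lengths and overlaps from GENCODE vM21 on GRCm38, which held 99.5% of the identifiers (260 not found).

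The filter (1 FPKM in 3 or more libraries) kept 12441 genes, and log2(FPKM + 1) of all 9 libraries was fitted with limma 3.58.1 in R 4.3.3 with a mean-dependent prior (6 residual and 4.95 prior degrees of freedom). The script was tested on simulated data. Implied fragment numbers multiply FPKM by exon length and depth; the depth was read from low values, of which 16.4 to 20.2% lay within 0.02 of a whole step, where chance gives 4%, so these numbers are approximate and cover counting only. Within groups, libraries correlated at 0.936 to 0.954 with bleomycin plus ST045849, 0.97 to 0.974 with bleomycin plus DMSO and 0.961 to 0.979 in vehicle.

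Replicate numbers come from the labels. Deviations of equally numbered libraries from their group means correlated at 0.466, 0.481 and 0.5 between the 2 bleomycin groups. For these a fit with the replicate number as a block is given beside the main fit. The main fit, with its SEs and intervals, used no block in any comparison. The deviations correlated at -0.0711, -0.026 and 0.546 between bleomycin plus DMSO and vehicle. Between bleomycin plus ST045849 and vehicle they correlated at -0.519, -0.279 and 0.424.

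The 9 genes, the lists and the tests were chosen with earlier results of these data known. The genes named are all 9 factors, from each list up to 2 risen and 2 fallen genes by adjusted p in each comparison, or the most abundant gene where none was called, genes whose exons overlap a factor, and the 2 genes most like each factor by Pearson r. A count of 5 or fewer is named in full. Alternatives tried numbered 14, besides leaving out each of the 9 libraries.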

Additional observations from a re-analysis of the deposited data

How the results depend on the processing

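Over the changes of the 7 tested factors in the 3 comparisons and all alternatives, 419 values kept direction and side of the threshold, 45 lost the call, 8 gained it and 5 turned in sign; the cause was not tested. The turns were small: bleomycin plus ST045849 against bleomycin plus DMSO gave 5e-04 for Fgf7 with array weights and 0.09 without ST045849 library 2, and 0.03 for both Vegfa and Hbegf without ST045849 library 1, and bleomycin plus ST045849 against vehicle gave -0.0026 for Vegfa after quantile normalization. With 1 library left out, the first comparison ranged from -0.61 to 0.09 for Fgf7, -0.37 to 0.03 for Vegfa and -0.44 to 0.03 for Hbegf. For bleomycin plus DMSO against vehicle, 607 genes were called, 284 with a mean of at least 5 FPKM, 1024 with the 2 groups alone, 1361 with the length trend removed and a replicate block, and 1938 with array weights; leaving out 1 library gave 184 to 829 genes and 0 to 3 factors. For bleomycin plus ST045849 against bleomycin plus DMSO, 0 genes were called in the main fit, which has no replicate block. With the block 2403 were called, with 2 factors among them. The block with the length trend removed gave 159 genes and 1 factor. Without the block, no filter gave 1 gene and the mean filter, quantile normalization, length trend removed and array weights gave 2 each, and leaving out 1 library gave 0 to 2225 genes and 0 to 1 factors. For bleomycin plus ST045849 against vehicle, 1225 genes were called, 651 with no filter, 660 with a mean of at least 5 FPKM, 710 with TPM, 621 with the 2 groups alone, 199 with the replicate block, 376 with the block and length trend removed, and 2767 with array weights; leaving out 1 library gave 286 to 3060 genes and 0 to 3 factors. There, 0 factors were called with no filter, and 1 with each of median-of-ratios scaling, quantile normalization, TPM, the replicate block, and length trend removed. Pairing by number was not borne out by the deviations in either comparison with vehicle, so those blocked values share only a number. Depth limits Areg and Vegfc, which rest on at most 14 and 79 implied fragments a library.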
